A study of Ovis aries with 6 samples.

Results

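The genes described here are the cyclins, cyclin-dependent kinases (CDKs), CDC genes, MCM helicase genes, E2F factors and pocket proteins, with PCNA, MKI67 and TOP2A, in the longissimus dorsi muscle of sheep. They were taken by gene symbol, and 90 of the 23144 symbols in the count table matched. The muscle came from females aged 1 year, 3 of the Qianhua Mutton Merino breed (QHMM) and 3 of the Small Tail Han breed (STH), raised in the same environment, with 1 poly(A) RNA library per animal. QHMM was bred from South African Mutton Merino rams and Chinese Northeast Fine-wool ewes, and STH is a traditional local breed. The comparison is STH vs. QHMM throughout and asks whether genes of the cell division machinery differ between a breed selected for meat and wool and a local breed.

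Cell division is driven by kinases that work only when bound to a cyclin. D cyclins bind CDK4 and CDK6, which phosphorylate the pocket proteins RB1, RBL1 and RBL2 and so release E2F factors, which switch on the genes for DNA replication. The E and A cyclins then act with CDK2 while the MCM helicase opens DNA at the origins, and cyclin B with CDK1 starts mitosis. Muscle fibres have left the cell cycle for good, and in adult muscle the cells able to divide are satellite cells, the stem cells of the fibres, and cells of vessels, connective tissue and blood. Symbols alone do not make a core cell cycle gene, as CDC42 and its partners act mainly on the actin skeleton and CDK7 to CDK13 mainly on transcription.

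The 6 libraries held 10982191 to 14334544 counted reads each. QHMM replicate 2 and STH replicate 3 stood apart from the other libraries on the second principal component, which held 19.3% of the variance, and had the lowest TMM factors, 0.852 and 0.853 against 1.01 to 1.20. Of 5 markers of muscle fibres, ACTA1, CKM, DES and MYBPC1 were abundant in every library, with sums of 81898 to 95937 RPKM (reads scaled by gene length and by the total of the library) in QHMM and 65321 to 106901 in STH, and TNNT3 was listed at 0 in all. Markers of other cell types were also present. The 3 endothelial markers that matched a row summed to 109 to 137 RPKM in QHMM and 110 to 178 in STH, the 4 fibroblast markers to 278 to 524 and 201 to 406, and the 5 leukocyte markers to 23.1 to 31.0 and 15.3 to 33.8, none of them at 0 throughout. The 4 satellite cell markers summed to 4.08 to 7.35 RPKM in QHMM and 8.26 to 10.6 in STH. Most of the satellite cell sum in STH was CDH15, the M-cadherin gene, which rose in STH by a log2 difference (STH over QHMM) of 1.12 (edgeR, FDR = 0.0448), and which was the only one of the 4 called. PAX7, the defining satellite cell factor, had a mean of 0.575 RPKM in QHMM and 0.228 in STH, CALCR 0.404 and 0.277, and MYF5 1.49 and 1.67, with overlap in each.

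Levels differed widely between the members. Mean RPKM over the 6 libraries was at least 100 for 1 member, between 10 and 100 for 19, between 1 and 10 for 40 and under 1 for 30, which is 33.3% under 1 against 52% of all 23119 genes with an RPKM. The median level was 2.46 RPKM over the 90 members and 0.804 over all genes, and 4.56 over the 70 members tested against 5.18 over all genes tested. In every library the reads on the 90 members made up 0.129% to 0.149% of all counts. The member with the highest level was CDC34, a ubiquitin-conjugating enzyme that works with SCF ligases, with 508 ± 17.5 RPKM in QHMM (mean ± SD, n = 3) and 320 ± 94.1 in STH (n = 3). CDC37, the chaperone that brings kinases to HSP90, followed with 82.6 ± 6.88 and 96.6 ± 8.35 RPKM, and CDK16, a kinase outside the core cycle, with 51.2 ± 2.11 and 45.4 ± 6.84. CDC42SE1, a small effector of CDC42, had 31.2 ± 4.15 and 44.1 ± 8.36 RPKM and CDK4 had 31.9 ± 4.49 and 36.2 ± 7.11. CDK16 had 1389, 1767 and 1471 TMM-normalized counts in QHMM and 1240, 993 and 1576 in STH, and CDC42SE1 had 111, 101 and 92.1 against 141, 114 and 141. The breeds overlapped for CDK16 and not for CDC42SE1, and neither was called. The CDK4 and CDC42SE1 levels did not differ beyond their spread in QHMM. RPKM depends on the gene model, and the lengths implied by the counts and RPKM ranged from 240 bases for CDC42SE1 to 9978 among the 88 members with a read.

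Several genes of DNA replication and mitosis had almost no reads. CDK1, the kinase of mitotic entry, had 2, 4 and 6 raw counts in QHMM (replicates 1, 2 and 3 in order) against 4, 3 and 0 in STH. CDC6, which loads the MCM helicase, had 0, 1 and 7 counts in QHMM and 2, 0 and 1 in STH, and CDC25C, a phosphatase that activates CDK1, had 0, 0 and 2 and then 5, 1 and 0. These counts are at or near the floor of 3 counts, below which no difference was detectable at this depth. CCNA2, the S-phase cyclin, had 3, 3 and 4 counts in QHMM and 5, 4 and 5 in STH. In all, 20 of the 90 members did not pass the filter for low counts and were not tested, and 4 of these, CCNA1, CCNB1IP1, CDC20B and CDK5R2, had at most 3 counts in any library. The other 16 untested members were CCNA2, CCNB3, CCNE2, CDC20, CDC25A, CDC25C, CDC42BPG, CDC42EP5, CDK1, CDK15, CDK18, E2F1, E2F7, E2F8, MCM8 and CDC6, none of which had more than 22 counts in any library.

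**Figure D1:**
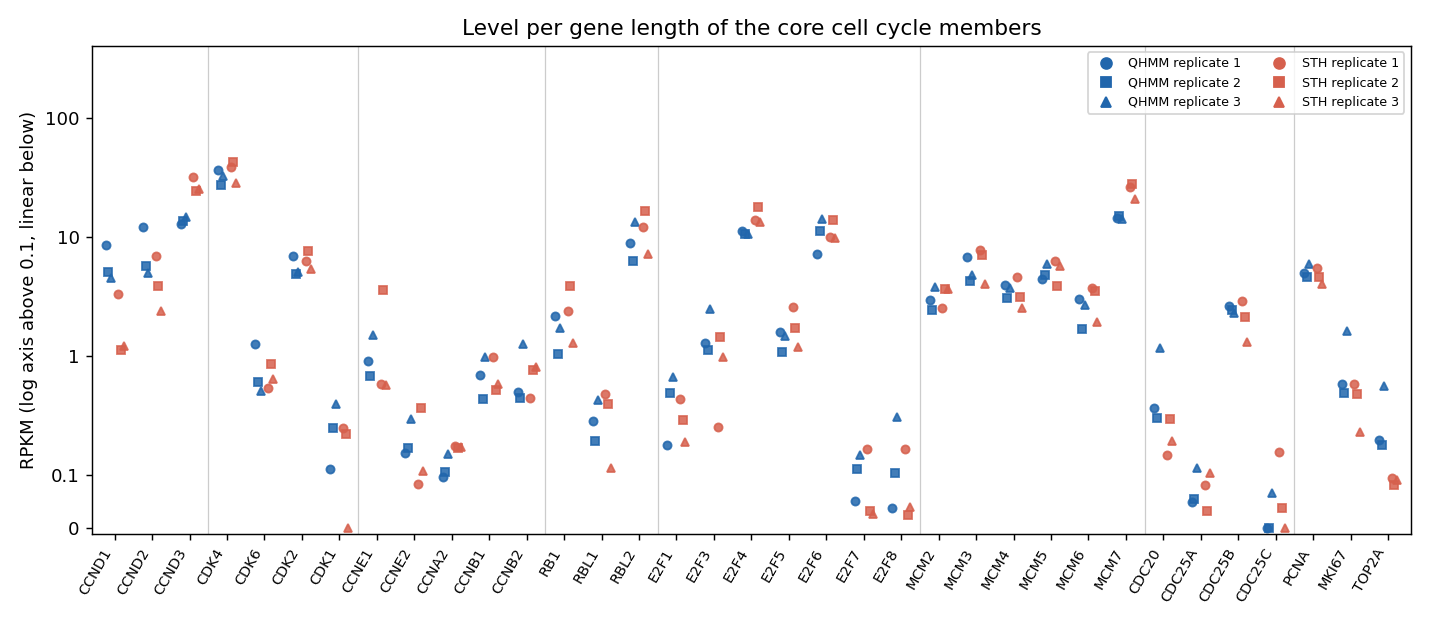
Deposited RPKM (vertical axis, log scale above 0.1 and linear below) of 35 core members in the 3 QHMM and 3 STH libraries, each point 1 library, with vertical lines between roles. CDK4 lies near 30 RPKM in both breeds while CDK1, CDC25C, E2F7 and E2F8 lie far under 1, and the breeds are apart for CCND1, CCND3 and MCM7.

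Of the 70 members tested, 1 was called in STH vs. QHMM (edgeR quasi-likelihood F test, FDR below 0.05 and a fold change above 1.5 in either direction), which is 1.43% against 3.45% of all 12506 genes tested, 1.62% called higher and 1.83% called lower. This was CDC42EP3, which fell in STH and is not a cyclin, a CDK or a replication gene. In bulk muscle, fewer cells of a type and less RNA per cell cannot be told apart, here and in the results that follow. The members called were 0 of 73 without QHMM replicate 1, 0 of 71 without QHMM replicate 3, 3 of 72 without STH replicate 1 and 2 of 73 without STH replicate 3. Over all genes these fits called 131 of 12751, 150 of 12815, 535 of 12700 and 329 of 12848. Without QHMM replicate 2 it was 1 of 71 members beside 208 of 12893 genes, and without STH replicate 2 1 of 72 beside 183 of 12858. Without both QHMM replicate 2 and STH replicate 3, 0 of 70 members and 11 of 12728 genes were called. Before adjustment, 12 members had a p below 0.05, 4 higher and 8 lower in STH, which is 17.1% against 19.2% of all genes tested (9.43% higher and 9.72% lower), TOP2A among them. For 17 members, 8 higher and 9 lower in STH (TOP2A among the lower), the normalized counts of the breeds did not overlap. That is 24.3% against 24.7% of all genes (13% higher and 11.7% lower). The log2 difference was above 0 for 38 members and below 0 for 32, with a median of 0.032 beside 0.023 over all genes tested. These counts are all near the shares of all genes. TOP2A passed the filter through QHMM alone, since all 3 of its STH libraries were under the cutoff of 10 counts at median depth, and 59 of the 70 were above that cutoff in all 6 libraries.

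**Figure D2:**
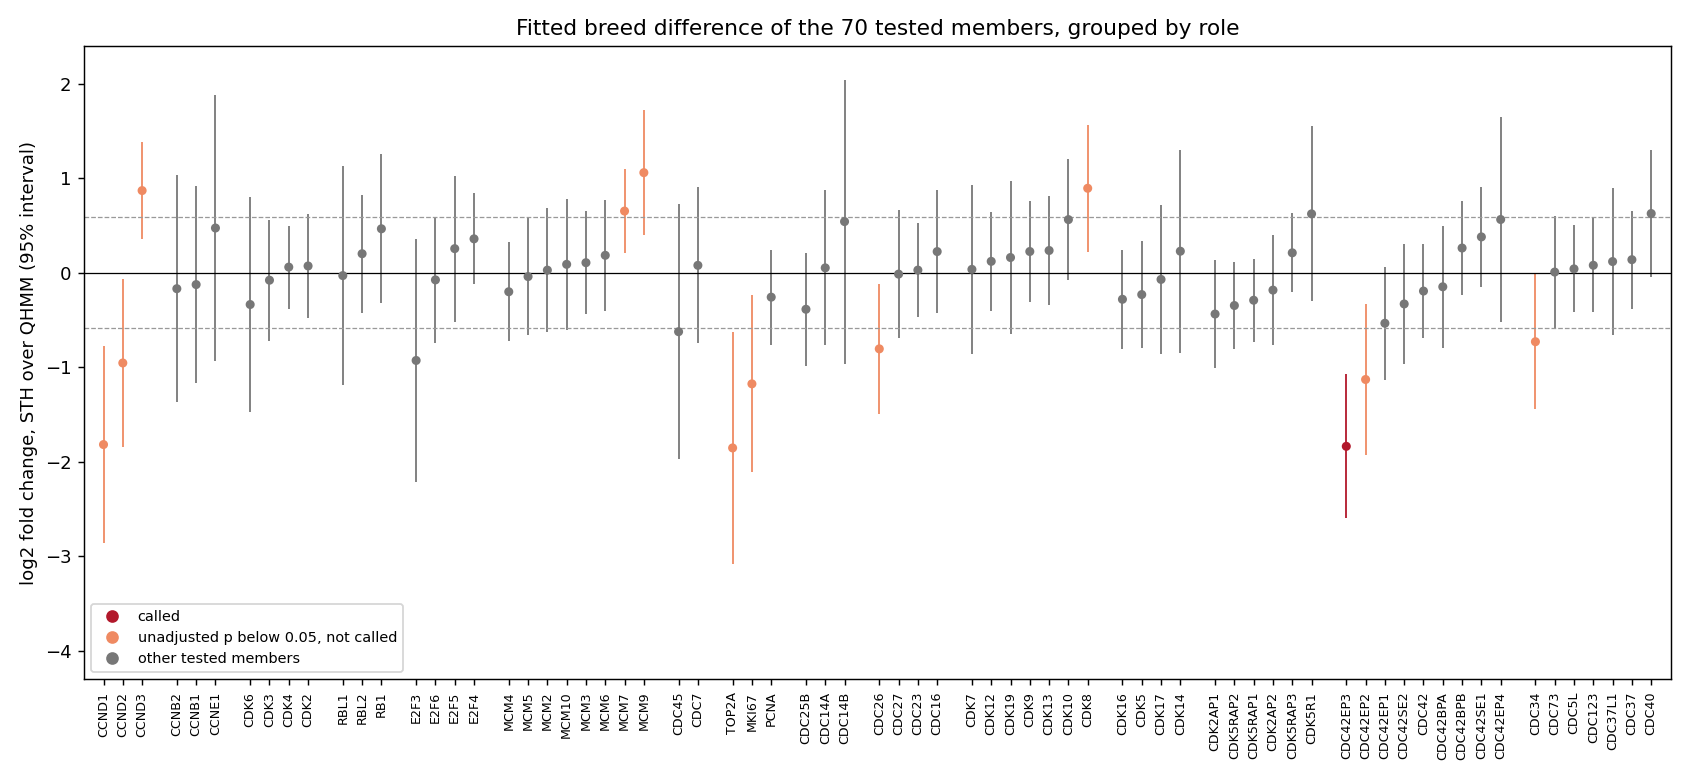
Fitted log2 fold change, STH over QHMM (vertical axis), of the 70 tested members grouped by role, with 95% intervals as vertical lines and dashed lines at a fold change of 1.5 to either side of 0. Red marks the 1 called member, orange the 11 others with an unadjusted p below 0.05, and grey the rest, whose intervals all cross 0. TOP2A, among the orange points, passed the filter only through QHMM, so its point is no evidence of a difference.

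The D cyclins, the cyclins that carry growth signals into the cycle, all had an unadjusted p below 0.05, and they did not share a direction. None of the 3 was called by edgeR. CCND1 had 54.0, 37.8 and 27.6 TMM-normalized counts in QHMM, in the order of replicates 1, 2 and 3, against 17.5, 6.46 and 9.03 in STH. Every STH library was below every QHMM library, and the log2 difference was -1.82 (SE 0.47, FDR = 0.0642). CCND2 had 137, 75.5 and 55.2 normalized counts in QHMM and 65.7, 39.8 and 31.6 in STH. STH replicate 1 was above QHMM replicate 3, so the breeds overlapped, and the log2 difference of -0.95 (FDR = 0.224, SE 0.40) was -0.52 without QHMM replicate 1. CCND3, the D cyclin of late muscle differentiation, had 112, 143 and 126 normalized counts in QHMM and 238, 197 and 261 in STH, with no overlap and a log2 difference of 0.87 (FDR = 0.0707, SE 0.23). DESeq2 called CCND1 (log2 difference -1.85, FDR = 0.0144) and CCND3 (0.85, FDR = 0.0411). CCND3 was also called by limma-trend on log2(RPKM + 1), at 0.93 (FDR = 0.0391), and on log2(RPKM + 0.1), at 0.98 (FDR = 0.0409). For CCND1 the adjusted p with edgeR and all 6 libraries was also below 0.05 without the filter for low counts, at 0.0291. Limma-trend did not call CCND1, with FDR values of 0.0679 on log2(RPKM + 1), 0.0737 on log2(RPKM + 0.1) and 0.169 on every gene. With 1 library left out, edgeR called CCND1 in 1 of 6 fits, without STH replicate 1 (FDR = 0.0378), and its FDR reached 0.198. CCND3 was called in 0 of these 6 fits, at FDR values of 0.103 to 0.214. COL1A1, a collagen gene of fibroblasts, was likewise lower in every STH library. It had 127, 84.7 and 168 RPKM in QHMM and 77.8, 23.7 and 61.1 in STH. The other fibroblast markers, PDGFRA, DCN and LUM, overlapped between the breeds. The part of fibroblasts in the CCND1 values was not tested.

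Per gene length, CCND3 made up 38.1%, 56.0% and 60.5% of the summed RPKM of the D cyclins in QHMM against 75.8%, 83.04% and 87.5% in STH. CCND1 made up 25.7%, 20.8% and 18.7% in QHMM and 7.81%, 3.82% and 4.25% in STH. The ratio of CCND3 to CCND1 and CCND2 together was 0.615, 1.27 and 1.53 in QHMM and 3.13, 4.89 and 6.97 in STH, so the breeds did not overlap in this ratio, which does not depend on how libraries are scaled. The ratio was formed after the counts of the 3 genes were seen, and it carries no test. Its size rests on the gene models, whose implied lengths were 485 bases for CCND1, 870 for CCND2 and 681 for CCND3. The summed RPKM of the 3 genes was 27.4 ± 5.40 in QHMM (n = 3) and 33.5 ± 7.64 in STH (n = 3), and the breeds overlapped.

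**Figure D3:**
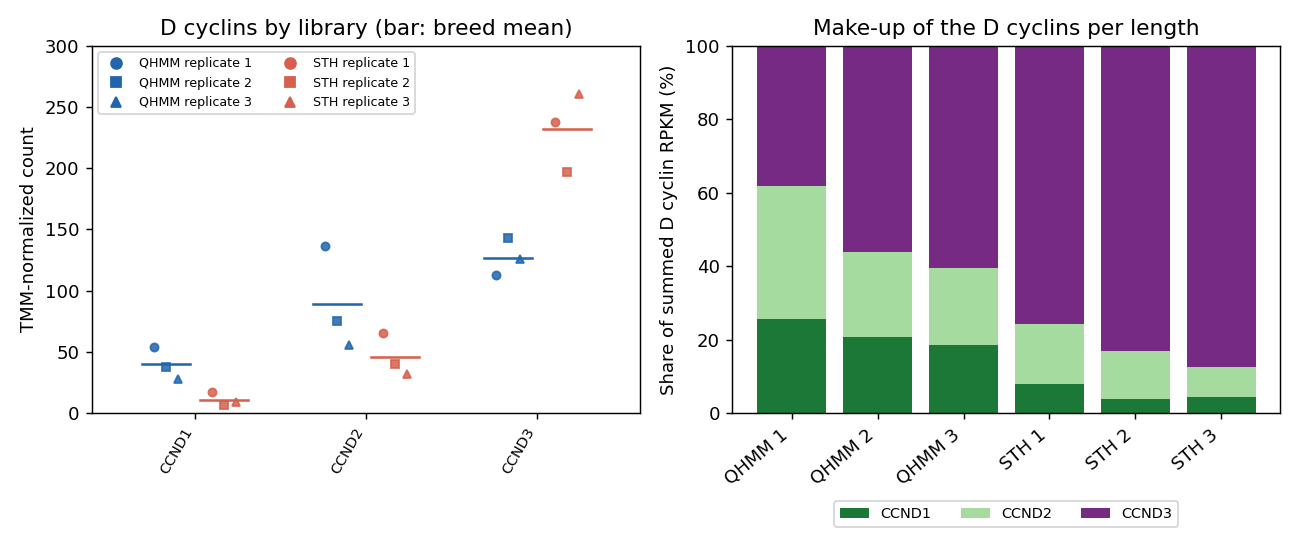
Left, TMM-normalized counts of the 3 D cyclins in each library, with bars at the mean of each breed. Right, the share of each gene in the summed D cyclin RPKM of each library in percent, with CCND3 at 38.1% to 60.5% in QHMM and 75.8% to 87.5% in STH.

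None of the kinases that D and E cyclins activate was called. CDK4 had 421, 376 and 368 normalized counts in QHMM and 376, 449 and 391 in STH, at a log2 difference of 0.06 (95% interval -0.38 to 0.50). CDK6, its close relative, had 20.7, 11.8 and 8.18 and then 7.48, 12.9 and 12.4 normalized counts. CDK4 thus made up 96.6% to 98.4% of the summed RPKM of the pair in QHMM and 97.8% to 98.6% in STH. CDK2, the partner of cyclins E and A, had 137, 114 and 98.2 normalized counts in QHMM and 105, 137 and 126 in STH, at a log2 difference of 0.07 (95% interval -0.48 to 0.62). Both intervals leave out differences of more than 0.62 in either direction on the log2 scale, whereas that of CDK6 runs from -1.47 to 0.80 because of its low counts.

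Among the A, B and E cyclins, 3 of 7 were tested and 0 were called, with 0 also at an unadjusted p below 0.05. CCNE1, the cyclin that commits cells to S phase, had 28.8, 26.0 and 47.0 normalized counts in QHMM and 15.8, 105 and 21.4 in STH. STH replicate 2 thus had 6.68 times the count of STH replicate 1, the widest ratio of highest to lowest within STH among the members tested, and the log2 difference of 0.47 was -0.89 without that library. The mitotic cyclin CCNB1 had 12.6, 9.44 and 17.4 normalized counts in QHMM and 15.0, 8.61 and 12.4 in STH, and CCNB2 had 9.89, 10.6 and 24.5 against 7.48, 13.99 and 19.2. Both overlapped. CCNE2, untested, had 5.40, 7.08 and 10.2 normalized counts in QHMM and 2.49, 11.8 and 4.52 in STH, with STH replicate 2 again the highest.

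The pocket proteins hold E2F factors in check in resting cells. RBL2, the p130 protein of quiescent cells, made up 78.2% to 86.2% of the summed RPKM of the 3 genes in QHMM and 79.4% to 83.6% in STH. It had 503, 425 and 751 normalized counts in QHMM and 584, 858 and 488 in STH, at a log2 difference of 0.20 (95% interval -0.42 to 0.83). RB1 made up 11.1% to 19.3% in QHMM and 15.1% to 18.7% in STH, and RBL1, the p107 protein of cycling cells, 2.52% to 2.76% and 1.34% to 3.19%. RB1 had 82.7, 47.2 and 64.4 normalized counts in QHMM and 76.5, 135 and 58.7 in STH, and RBL1 had 11.7, 9.44 and 17.4 against 16.6, 15.1 and 5.64. None of the 3 was called, 0 had an unadjusted p below 0.05, and the breeds overlapped in each.

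The E2F factors were likewise unequal in level. E2F4, which represses cell cycle genes together with RBL2, and E2F6, another repressor, together held most of the summed E2F RPKM. E2F2 matched no row, so the sum covers the other 7 E2F genes. E2F4 made up 35.9% to 51.7% in QHMM and 50.5% to 52.4% in STH, and E2F6 33.6% to 47.1% and 36.4% to 39.4%. E2F1, the classic activator, made up 0.830% to 2.26% in QHMM and 0.742% to 1.61% in STH. E2F3, another activator, had 25.2, 26.0 and 47.0 normalized counts in QHMM and 4.16, 25.8 and 22.6 in STH, with a log2 difference of -0.93 (FDR = 0.425, SE 0.58) that was -0.45 without STH replicate 1. E2F4 had 284, 319.7 and 267 normalized counts in QHMM and 298, 416 and 404 in STH, at a log2 difference of 0.36 (FDR = 0.408, SE 0.22). E2F5 had 30.6, 24.8 and 27.6 normalized counts in QHMM and 41.6, 30.1 and 27.1 in STH, and E2F6 had 98.0, 182 and 186 against 114, 172 and 156. The breeds overlapped in E2F3, E2F4, E2F5 and E2F6. E2F1 had 4, 10 and 13 raw counts in QHMM and 9, 5 and 4 in STH. E2F7 and E2F8, the atypical repressors of S phase, had 2, 4 and 5 and 2, 5 and 14 raw counts in QHMM and 6, 1 and 1 and 8, 1 and 2 in STH. Of the E2F genes, 4 of 7 were tested, 0 were called and 0 had an unadjusted p below 0.05.

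MCM2 to MCM7 form the hexamer that unwinds DNA, with each subunit present once in the ring. Their levels were not equal. MCM7 alone made up 40.6%, 47.9% and 40.4% of the summed RPKM of the 6 genes in QHMM and 51.5%, 56.9% and 53.8% in STH, while each of the others held at most 19.1%. MCM7 had 456, 560.4 and 441 normalized counts in QHMM and 704, 809.5 and 777 in STH, with a log2 difference of 0.65 (FDR = 0.110, SE 0.20). Every STH library was above every QHMM library, but the FDR was above 0.05 with edgeR and in each alternative setting tried. The remaining 5 subunits had no such gap. MCM2 had 109, 105 and 137 normalized counts in QHMM and 78.2, 122 and 159 in STH. MCM3 had 251, 186 and 174 normalized counts in QHMM and 242, 239 and 177 in STH, and MCM4 had 144, 133 and 135 against 143, 105 and 109.5. MCM5 and MCM6 likewise had libraries of both breeds among each other. MCM5 had 133, 172 and 175 normalized counts in QHMM and 158, 107 and 202 in STH, and MCM6 had 123, 81.4 and 107 against 129, 132 and 93.7. MCM3, MCM4, MCM5 and MCM6 had log2 differences of 0.11, -0.20, -0.04 and 0.18, with FDR values of 0.697 to 0.958, and their 95% intervals lay within -0.73 and 0.77. The breeds overlapped in each of these 5 genes.

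MCM9, which acts in DNA repair and is not part of the hexamer, had 76.4, 63.7 and 72.6 normalized counts in QHMM and 103, 208 and 134 in STH. All STH libraries were above all QHMM libraries, and the log2 difference of 1.06 (FDR = 0.0825, SE 0.30) was 1.25 without STH replicate 1, where it was called, and 0.72 without STH replicate 2. DESeq2 called it (FDR = 0.0388). MCM10, an initiation factor, had 33.0 to 52.2 normalized counts in QHMM and 39.9 to 50.8 in STH. CDC45 and CDC7, which fire loaded origins, had 8.18 to 17.7 and 27.9 to 36.8 normalized counts in QHMM and 3.33 to 15.8 and 22.6 to 47.4 in STH, so that both overlapped.

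MKI67, TOP2A, CDC20 and PCNA were lower in every STH library than in every QHMM library, without a call. Of all genes tested, 11.7% were lower in STH without overlap. CCNB1, CCNB2 and CDK1 overlapped, and MCM7 and CCNA2 were higher in every STH library. CCNA2, too low to be tested, had 2.70, 3.54 and 4.09 normalized counts in QHMM and 4.16, 4.31 and 5.64 in STH. MKI67, which encodes the Ki-67 protein of cycling cells, had 75.5, 75.5 and 204 normalized counts in QHMM and 64.0, 57.1 and 35.0 in STH, with a log2 difference of -1.18 (FDR = 0.162, SE 0.42). TOP2A, the topoisomerase that untangles replicated DNA, had 14.4, 15.3 and 39.9 normalized counts in QHMM and 5.82, 5.38 and 7.90 in STH. It passed the filter only through QHMM, where it was high. Its fold and test are therefore not printed, and its point in the figure of fold changes carries the same limit. In both genes QHMM replicate 3 was far above the other QHMM libraries, and without it the log2 difference of MKI67 was -0.53. CDC20, the activator of the anaphase-promoting complex, had 7.19, 7.08 and 22.5 normalized counts in QHMM and 2.49, 5.38 and 4.52 in STH, and was too low to be tested. QHMM replicate 3 was again the highest. That library also had the highest summed fibroblast markers, 524 RPKM against 412 and 278 in QHMM replicates 1 and 2. COL1A1, DCN and PDGFRA were highest there, and LUM in QHMM replicate 1. In QHMM replicate 3 the summed leukocyte markers were the lowest of the breed, at 23.1 RPKM against 31.0 and 25.1. The part of these cell types in the counts was not tested. PCNA, the sliding clamp of the replication fork, had 130.4, 145 and 153 normalized counts in QHMM and 122, 111 and 125 in STH. Its breeds did not overlap in these counts, although the log2 difference was only -0.26 (95% interval -0.76 to 0.24, FDR = 0.583).

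For a panel of 22 genes of S phase and mitosis, the summed level was 46.1, 40.7 and 51.8 RPKM in QHMM and 62.3, 62.4 and 47.3 in STH. The breeds overlapped. Without MCM7 the sum of the other 21 was 31.6, 25.8 and 37.6 RPKM in QHMM and 35.8, 34.4 and 26.5 in STH, with means of 31.6 ± 5.91 and 32.2 ± 5.03 (n = 3 each). Of these 22 genes 14 were tested and 0 called by edgeR or by DESeq2, which compares with 3.45% called by edgeR over all genes, and 3 (21.4%, TOP2A among them, against 19.2% of all genes) had an unadjusted p below 0.05.

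**Figure D4:**
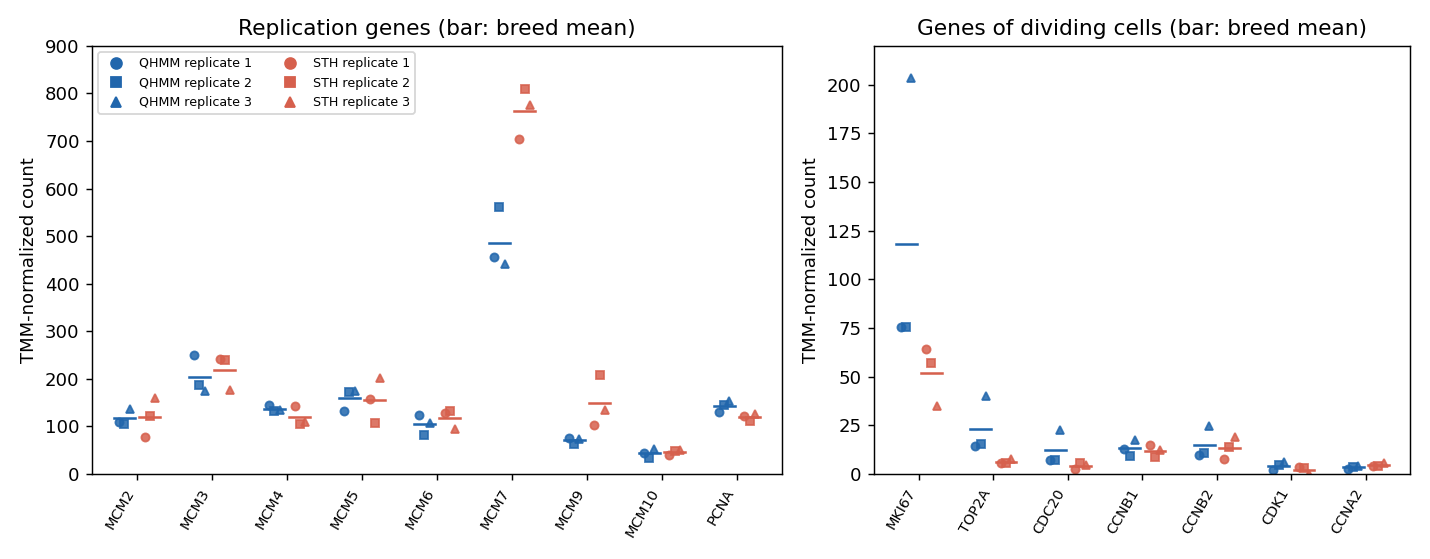
TMM-normalized counts (vertical axes) of replication genes on the left and of genes of dividing cells on the right in each library, with bars at the mean of each breed. MCM7 lies at 441 to 560.4 in QHMM and 704 to 809.5 in STH, and QHMM replicate 3 is the highest library for MKI67, TOP2A and CDC20.

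The phosphatases and the anaphase-promoting complex (APC/C), which removes mitotic cyclins, gave no call. CDC25B had 98.0, 107 and 83.9 normalized counts in QHMM and 90.6, 72.1 and 57.6 in STH, at a log2 difference of -0.39 (FDR = 0.483), and CDC25A had at most 4 raw counts in any library. The APC/C subunits CDC16, CDC23 and CDC27 had log2 differences of 0.22, 0.03 and -0.01. CDC26, a small subunit that holds the complex together, had 80.9, 79.0 and 75.7 normalized counts in QHMM and 36.6, 35.5 and 63.2 in STH, with no overlap and a log2 difference of -0.81 (FDR = 0.186, SE 0.31). A second row, LOC101114750, which the annotation in the files calls CDC26-like, had 124, 105 and 100.2 normalized counts in QHMM and 86.5, 103 and 109.5 in STH, at a log2 difference of -0.14. How reads were shared between these near-identical symbols is not known, so the CDC26 value is uncertain. CDC14B had 20.7, 2.36 and 11.3 normalized counts in QHMM, the widest range within a breed of any tested member.

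The 7 CDKs that act on transcription had log2 differences of 0.036 to 0.89, and none was called. CDK8, the kinase of the Mediator complex, had 73.7, 43.6 and 45.0 normalized counts in QHMM and 93.9, 123 and 86.9 in STH. Its breeds did not overlap, with a log2 difference of 0.89 (FDR = 0.138, SE 0.30). CDK19, its paralog in Mediator, had 41.3 to 99.2 and 54.2 to 103 normalized counts, and CDK9, the kinase that releases paused RNA polymerase, had 504 to 560.4 and 431 to 776. Genes named as partners of CDK2 and CDK5 were grouped by symbol, not by a shared function. Of the 6 tested, 4 had breeds that did not overlap (66.7%, against 24.7% of all genes). These were CDK5R1 and CDK5RAP3, higher in STH, and CDK5RAP1 and CDK5RAP2, lower in STH. Their log2 differences lay between -0.35 and 0.62, and none had an unadjusted p below 0.05. Rows that the annotation of the files compares to CDK11B and CDK20, LOC101104843 and LOC101102036, fall outside the symbols used here, and had log2 differences of 0.29 (FDR = 0.462) and 0.63 (FDR = 0.459).

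CDC42 organises actin filaments and cell polarity, and it is not a cyclin, a CDK or a replication gene. It had 235, 241 and 276 normalized counts in QHMM and 225, 251 and 181 in STH, at a log2 difference of -0.19 (95% interval -0.69 to 0.30). The CDC42EP genes encode the Borg proteins, which bind active CDC42 and act on septin and actin fibres. CDC42EP3 had 526, 264 and 334 normalized counts in QHMM and 132, 62.4 and 119.7 in STH. The lowest QHMM library was above the highest STH library, and CDC42EP3 fell with a log2 difference of -1.84 (FDR = 0.0208, SE 0.34). The call was lost without QHMM replicate 1 (-1.53, FDR = 0.0674), without QHMM replicate 3 (-1.91, FDR = 0.0505) and without both QHMM replicate 2 and STH replicate 3 (-2.14, FDR = 0.1003). With the other libraries left out singly the log2 difference was -2.06 to -1.59 and the gene was called.

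CDC42EP2 had 281, 132 and 118 normalized counts in QHMM and 79.0, 61.4 and 103 in STH. It did not overlap between the breeds, but the log2 difference of -1.13 (FDR = 0.119, SE 0.36) was -0.65 without QHMM replicate 1, the library in which it was far higher than in the rest. DESeq2 called it (FDR = 0.0390). CDC42EP1 had a log2 difference of -0.53 (FDR = 0.313, SE 0.27) and CDC42EP4 of 0.56 (SE 0.49, FDR = 0.581), both with overlap. CDC42EP5, untested, had 5.40, 3.54 and 5.11 normalized counts in QHMM and 3.33, 2.15 and 2.26 in STH. The kinases CDC42BPA and CDC42BPB had log2 differences of -0.15 and 0.26. The summed fibroblast markers were 412, 278 and 524 RPKM in QHMM and 406, 210 and 201 in STH. CDC42EP2 and CDC42EP3 were highest in QHMM replicate 1. Of the 4 fibroblast markers, LUM, a proteoglycan, was also highest there, at 54.9 RPKM. COL1A1, DCN and PDGFRA were instead highest in QHMM replicate 3, at 168, 319 and 9.40 RPKM. The part of fibroblasts in the CDC42EP2 and CDC42EP3 values was not tested.

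**Figure D5:**
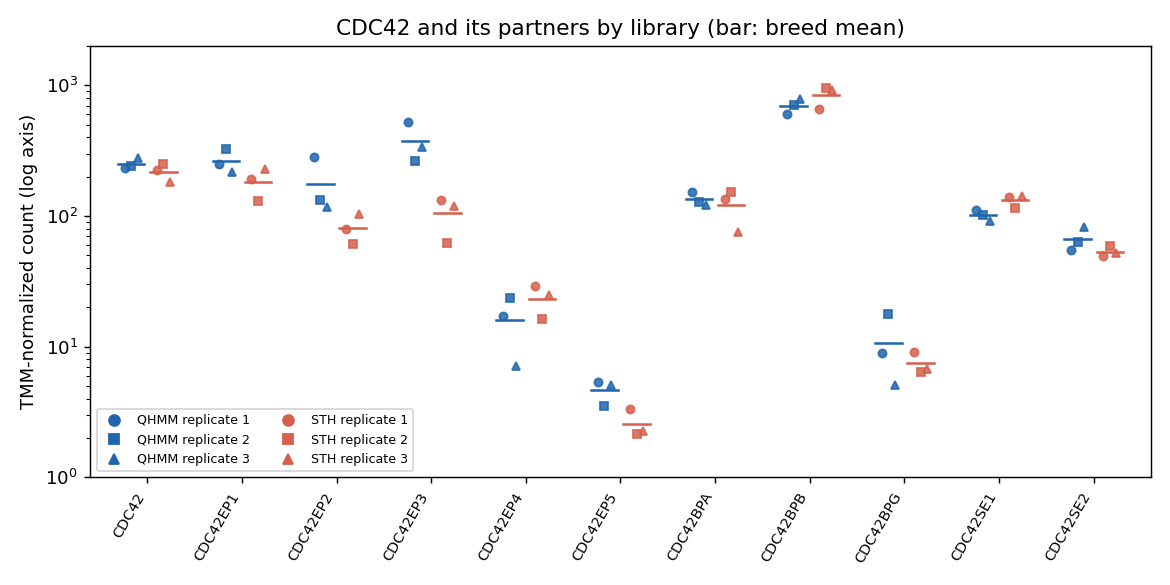
TMM-normalized counts (vertical axis, log scale) of CDC42 and 10 partner genes in each library, with bars at the mean of each breed. CDC42EP3 lies at 264 to 526 in QHMM and 62.4 to 132 in STH, while the CDC42 points of the breeds overlap.

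CDC34, the most abundant member, had 4123, 5172 and 4017 normalized counts in QHMM and 1941, 1911 and 4176 in STH. STH replicates 1 and 2 were at less than any QHMM library, whereas STH replicate 3 lay among the QHMM libraries. The log2 difference was -0.73 (SE 0.32, FDR = 0.253), and -1.20 without STH replicate 3 (FDR = 0.0422). CDC37 had 1703, 1760.1 and 1699.9 normalized counts in QHMM and 1649, 1591 and 2444 in STH, where STH replicate 3 was the highest of all 6 libraries. Of the other CDC genes, CDC5L and CDC40, which act in splicing, had log2 differences of 0.04 and 0.63, CDC73 of the PAF1 complex had 0.01, and CDC123, an assembly factor of the translation initiation factor eIF2, had 0.08.

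Outside the 90 members, 82 further cell cycle and replication genes were listed, of which 77 matched a row and 60 were tested. edgeR called 3 of them, 1 higher and 2 lower in STH, which is 5.00% against 3.45% of all genes, and 9 (15%, against 19.2% of all genes) had an unadjusted p below 0.05. The number called was 0 of 64 without QHMM replicate 2, 1 of 61 without QHMM replicate 3 and 1 of 65 without STH replicate 2. Over all genes these fits called 208 of 12893, 150 of 12815 and 183 of 12858. Without both QHMM replicate 2 and STH replicate 3 it was 0 of 61, beside 11 of 12728 genes. Among the CDK inhibitors, CDKN1A, the p21 protein that blocks CDK2, rose from 163, 126 and 48.1 normalized counts in QHMM to 364, 539 and 734 in STH, with a log2 difference of 2.28 (FDR = 0.0193, SE 0.41). CDKN2C, the p18 protein that blocks CDK4 and CDK6, fell from 348, 525 and 531 to 163, 131 and 229, at a log2 difference of -1.42 (FDR = 0.0228, SE 0.27). LIN52, a subunit of the MuvB core that binds RBL2 and E2F4 in resting cells, fell from 163, 185 and 246 normalized counts in QHMM to 82.3, 66.7 and 86.9 in STH, with a log2 difference of -1.33 (FDR = 0.0244, SE 0.26). The breeds did not overlap in any of the 3 genes. Of other MuvB subunits, LIN54 had a log2 difference of 0.996 (FDR = 0.0825, SE 0.28), LIN37 of 0.64 (SE 0.22, FDR = 0.147) and LIN9 of 0.018, none of them called. The choice of LIN54, LIN37 and LIN9 was made with their values in view.

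The spread between animals of a breed was close to that of other genes. The median coefficient of variation of the tested members was 18.7% in QHMM and 26.1% in STH, against 20.7% and 23.9% over all genes tested. The smallest exact permutation p that 3 against 3 allows for any single gene is 0.1.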

How the data were processed

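Poly(A) RNA of longissimus muscle was sequenced on an Ion Proton instrument. The authors filtered the reads, mapped them to Oar_v3.1 and kept uniquely mapped reads. They deposited raw counts per gene, and RPKM values scaled by gene length and library total. The aligner, the counting program, its use of strand and the annotation release are not given in the sources used here. In the RPKM table, 25 rows whose names had turned into dates were left out.

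Counts were tested in R 4.3.3 with edgeR 4.0.16 (TMM factors, filterByExpr, then glmQLFit and glmQLFTest on breed alone). Calls needed an FDR (Benjamini-Hochberg over 12506 genes) below 0.05 and a fold change over 1.5 in either direction. EBSeq, the program of the study, was not installed. The SE came from the log2 fold change and the F statistic, and 95% intervals from the t quantile. Normalized counts are TMM counts at the median library total. Animals are the replicates, and n is 3 per breed.

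In all, 11 alternatives with all 6 libraries and 6 that each left out 1 library were run. They used DESeq2 1.42.0, limma 3.58.1 on log2(RPKM + 1) and log2(RPKM + 0.1), upper-quartile factors, other filters, robust dispersions, other thresholds and a replicate block. A fit without QHMM replicate 2 and STH replicate 3 was added after the data were seen. On simulated counts for this comparison with 200 changed genes, edgeR called 78% of the 4-fold changes and 4.81% of its calls were false (12301 genes), against 81% and 16.1% for DESeq2. These counts were drawn from a negative binomial with dispersions estimated by edgeR. They therefore cannot rank edgeR and DESeq2 on the real data. Plots were drawn with matplotlib 3.10.9.

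The members and gene lists were chosen with earlier results of these data known. Values per library are given for called members, those with an unadjusted p below 0.05, a list of core cycle genes and the 5 members with the highest RPKM, and for a few of very low count only the highest count is printed. Members outside that rule are named for their role, after their values were seen. No sequences are shown.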

Additional observations from a re-analysis of the deposited data

How the results depend on the processing

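The members called were 5 of 70 with DESeq2 (CCND1, CCND3, CDC42EP2, CDC42EP3 and MCM9), beside 973 of 12506 genes. They were 2 of 88 without a filter on low counts and 0 of 70 at an FDR of 0.01. With limma-trend they were 2 of 59 on log2(RPKM + 1), 2 of 59 on log2(RPKM + 0.1) (CCND3 and CDC42EP3 in both) and 0 of 88 on every gene. The number was 0 to 3 with 1 library left out and 0 without QHMM replicate 2 and STH replicate 3. CDC42EP3 was called in 9 of the 11 alternatives with all 6 libraries. Over all genes the other settings called 806 of 17668 without the filter and 41 of 12506 at an FDR of 0.01. Limma-trend called 346 of 11140 on log2(RPKM + 1), 328 of 11140 on log2(RPKM + 0.1) and 78 of 17644 on every gene. The number was 131 to 535 with 1 library left out and 11 without QHMM replicate 2 and STH replicate 3. Of the further cell cycle genes, 0 were called at an FDR of 0.01, 0 with limma-trend on every gene, 0 to 3 with 1 library left out and 0 without QHMM replicate 2 and STH replicate 3. In the RPKM fits the median log2 fold change of all genes rose from 0.023 to 0.117 and 0.141, and the calls were 212 higher and 134 lower with log2(RPKM + 1) against 203 and 229 from counts. The members' median was 0.148 with log2(RPKM + 0.1), and -0.071 to 0.088 with 1 library left out. The cause of these shifts was not tested.

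Of the 36 named members tested, 24 kept the sign of the log2 fold change in every alternative. With 1 library left out it ran from -0.037 to 0.0996 for CDK4, -0.59 to 0.10 for CDK6, -0.035 to 0.18 for CDK2, -0.32 to 0.30 for RBL1, -0.079 to 0.47 for RBL2, -0.23 to 0.25 for MCM2, -0.27 to 0.15 for MCM5, -0.34 to 0.080 for E2F6, -0.34 to 0.12 for CCNB1, -0.50 to 0.38 for CCNB2, -0.89 to 0.88 for CCNE1 and -0.085 to 0.23 for CDC37. Sign changes elsewhere were those of MCM2 (-0.0047 with upper-quartile factors, -0.0052 with at least 10 counts in every library, -0.014 with the replicate block, -0.31 without QHMM replicate 2 and STH replicate 3), MCM5 (0.032 with log2(RPKM + 1), 0.035 with log2(RPKM + 0.1), 0.032 on every gene), E2F6 (0.066, 0.074 and 0.066 in the same fits), RBL1 (0.025 with limma-trend on every gene, 0.12 without QHMM replicate 2 and STH replicate 3) and CDC37 (-0.081 without those libraries). None of these members was called in any fit.

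The labels number the replicates of both breeds. The deviations of same-numbered libraries from their breed means had correlations of 0.221, -0.034 and -0.125, and those of the other pairs ran from -0.260 to 0.278. With 3 libraries per breed, these values cannot decide whether the numbers pair the animals. With the replicate number as a block, 2 members were called, CCND1 and CDC42EP3.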
